A study of Mus musculus with 8 samples.

Results

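Rab GTPases are small membrane switches, and the genes described here are the 58 members of the Rab family measured in cultured mouse melanocytes with and without Atg7. They were taken by symbol from the array annotation: the word Rab, a number, and at most a letter and a digit after it. Only probe sets annotated to 1 symbol entered, which gave 66 probe sets for 58 genes out of 22180 genes in all, and the brightest probe set stood for a gene that had several. Rab27a (Entrez 11891), Rab32 (Entrez 67844) and Rab38 (Entrez 72433), the Rabs best known from pigment cells, are among them. Gene expression was read on 8 Affymetrix whole-transcript arrays from melanocytes of pups 1 to 5 days old, kept in culture for 22 days. All cells carried floxed Atg7. WT cells had Atg7 f/f alone and an intact autophagy pathway. KO cells were Atg7 f/f Tyr::Cre, in which the tyrosinase promoter drives Cre in pigment cells and leaves other cell types of a culture with Atg7. Each genotype was either exposed to 20 J/cm2 of UVA-1, long-wave ultraviolet light, or sham treated, and RNA was taken 6 h later. This gave 4 groups of 2 arrays, sham and UVA for each genotype, with duplicates numbered 1 and 2 in every group. The submitters call them biological duplicates, the labels do not say how many pups went into a culture, and all samples carry the same sex label, female. Values for a number are given below in the order WT sham, WT UVA, KO sham, KO UVA unless stated.

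A Rab cycles between a GTP-bound form on a membrane, where it recruits effectors such as motors and tethers, and a GDP-bound form that a carrier protein holds in the cytosol. Exchange factors (GEFs) switch it on and activating proteins (GAPs) switch it off, and a lipid tail added by the geranylgeranyl transferase anchors it. In melanocytes Rab32 and Rab38 bring melanin enzymes from endosomes to maturing melanosomes. Rab27a then sits on the ripe melanosome and, through melanophilin and myosin Va, holds it on actin near the cell edge. Loss of Rab27a in mice and in people dilutes pigment, and a mutation of Rab38 gives the chocolate coat colour of mice. Other Rabs mark early endosomes (Rab5), late endosomes and lysosomes (Rab7), the Golgi (Rab6) and recycling vesicles (Rab11), and several, such as Rab7, Rab24 and Rab33b, also take part in autophagy.

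Promoters are shown for the pigment cell Rabs and for 2 other Rabs that leaned up after UVA with a CACGTG box. They are shown because MITF, the melanocyte regulator, and its relative TFEB, a regulator of lysosomal genes, bind E-box letters. Rab20 and Rab5a were picked by both their UVA values and the box, so the pair tests no link between these. The RefSeq promoter table (GRCm38.p6) held 47 of the 58 genes, in 59 windows that reach from 250 bases before a transcript start to 50 after it. The letters CACGTG, which read the same on both strands, were in 6 of the 59 windows (10.2%), against 7.15% of all 32851 windows. The letters CATGTG, on either strand, were in 6 windows (10.2%), against 14.2% of all; the forms spell different letters and cannot fill the same place. The genes with CACGTG were Rab20, Rab21, Rab23, Rab24, Rab27a and Rab5a. Their log2 differences between UVA and sham, averaged over genotypes, were 0.21, -0.04, -0.00, 0.02, 0.18 and 0.16 in that order. Those with CATGTG were Rab13, Rab15, Rab28, Rab34 and Rab40b. Below are the 250 bases before each start of Rab27a and the start of Rab32, and shorter stretches around the first box of Rab20 and Rab5a, read 5′ to 3′ in lower case with the box in capitals. Rab27a start 1 (chr9:73044560-73044809, plus strand) and Rab32 (chr10:10558208-10558457, minus strand) held neither form in these bases, and Rab27a start 2 (chr9:73063898-73064147, plus strand) held CACGTG 246 bases before the start. The Rab20 stretch is chr8:11478654-11478713 on the minus strand, with the box 46 bases before the start. The Rab5a stretch is chr17:53478984-53479031 on the plus strand, with the box 235 bases before the start and a further box at 95. Rab38 is not in the table. A match describes letters and is not evidence of binding.
Rab27a start 1: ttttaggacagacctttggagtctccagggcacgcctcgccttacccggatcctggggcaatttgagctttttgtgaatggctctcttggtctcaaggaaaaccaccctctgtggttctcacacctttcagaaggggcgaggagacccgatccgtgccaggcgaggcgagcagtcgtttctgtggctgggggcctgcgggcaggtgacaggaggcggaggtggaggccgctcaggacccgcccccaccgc
Rab27a start 2: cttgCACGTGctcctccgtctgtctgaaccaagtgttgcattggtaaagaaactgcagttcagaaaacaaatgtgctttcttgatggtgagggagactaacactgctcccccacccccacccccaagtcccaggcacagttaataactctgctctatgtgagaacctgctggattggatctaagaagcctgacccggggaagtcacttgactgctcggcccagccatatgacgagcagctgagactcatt
Rab32: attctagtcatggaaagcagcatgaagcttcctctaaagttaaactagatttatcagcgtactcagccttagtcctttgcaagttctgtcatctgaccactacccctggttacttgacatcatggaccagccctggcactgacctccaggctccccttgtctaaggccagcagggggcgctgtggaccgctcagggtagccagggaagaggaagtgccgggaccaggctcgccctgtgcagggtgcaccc
Rab20: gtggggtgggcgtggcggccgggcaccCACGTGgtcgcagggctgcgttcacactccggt
Rab5a: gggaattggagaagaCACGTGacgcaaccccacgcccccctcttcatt

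Values below are log2 intensities, and a difference of 1 on that scale is a doubling. Array medians were 110 to 115 on the linear scale, and the median gene averaged 7.31 on the log2 scale. Of the 58 Rab probe sets, 46 were brighter than that median gene and 2 (Rab37 and Rab39) averaged under 6. Brightness depends on the probes, so levels of different Rabs are not compared. Of the melanocyte markers, Dct lay between 13.51 and 14.19 and Pmel between 13.35 and 13.99, while fibroblast markers were also detected. The arrays separated first by replicate number, along a first principal component with 77.7% of the variance. Deviations from the group means of same-numbered arrays correlated at 0.799 to 0.916 over all genes and at 0.844 to 0.95 over the Rab genes, so the number was fitted as a block. The summed linear intensity of the 12 fibroblast markers was 54626, 52969, 55906 and 52685 in number 1 and 11532, 10137, 23556 and 21860 in number 2. For the 14 melanocyte markers it was 62165, 58999, 60102 and 63026 in number 1 and 110108, 107877, 92678 and 93986 in number 2. The KO arrays of number 2 thus lay between the WT arrays of number 2 and number 1 in both sums. The lowest intensity of any probe set was 7 on the linear scale, so a reading alone does not show that a cell type was present. Mast cell markers, for one, read 3.46 to 5.61 on the log2 scale, below the median gene. The sums were 1344 to 1597 for 9 keratinocyte, 195 to 212 for 7 mast cell, 4252 to 5761 for 8 endothelial, 2624 to 7045 for 7 Schwann cell and 1092 to 1305 for 8 skeletal muscle markers. For 8 myeloid markers the sum was 1088 to 1263 in number 1, 1413 and 1338 in the WT arrays of number 2, and 2691 and 2449 in its KO arrays. The brightest of these markers, Lyz2, read 9.12 and 8.82 in those WT arrays and 10.75 and 10.60 in those KO arrays. Atg7 itself read 9.95, 9.97, 9.70 and 9.65 in number 1 and 9.75, 9.70, 9.22 and 9.23 in number 2. The limma difference between KO and WT was -0.39 (SE 0.07, adjusted p = 0.297). Which exons its probes cover is not given in the sources used here, so this does not check the deletion.

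Rab27a and Rab38 differed far more between the replicate numbers than between genotypes or treatments. Rab27a, which ties melanosomes to actin, read 10.58, 10.55, 10.48 and 10.90 in number 1 and 12.12, 12.23, 11.69 and 11.90 in number 2. Every array of number 2 was above every array of number 1, and the mean difference was 1.35. Rab38, the cargo transport Rab mutated in chocolate mice, read 9.94, 9.54, 9.83 and 9.98 in number 1 and 12.00, 11.79, 11.34 and 11.22 in number 2. The numbers again did not overlap, with a difference of 1.76. Rab32, its closest relative, read 10.88, 10.68, 10.91 and 10.50 in number 1 and 11.73, 11.49, 11.00 and 10.84 in number 2. Here the numbers overlapped: the KO arrays of number 2 lay at the level of number 1, while both WT arrays of number 2 were the highest of all 8. As group values, Rab27a was 11.35 ± 1.08, 11.39 ± 1.19, 11.09 ± 0.85 and 11.40 ± 0.71 (mean ± SD, n = 2 each, groups in the same order). Rab38 was 10.97 ± 1.46, 10.67 ± 1.59, 10.59 ± 1.06 and 10.60 ± 0.87, and Rab32 11.30 ± 0.60, 11.09 ± 0.57, 10.96 ± 0.06 and 10.67 ± 0.24. The other members of the melanosome group varied less: Rab27b, a paralog of Rab27a, stayed between 6.00 and 6.19, Rab17 between 6.51 and 6.75, and Rab36, which carries melanosomes inward along microtubules, between 7.85 and 8.26. All arrays of number 2 were above number 1 for Rab36 too, with a difference of 0.34.

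**Figure D1:**
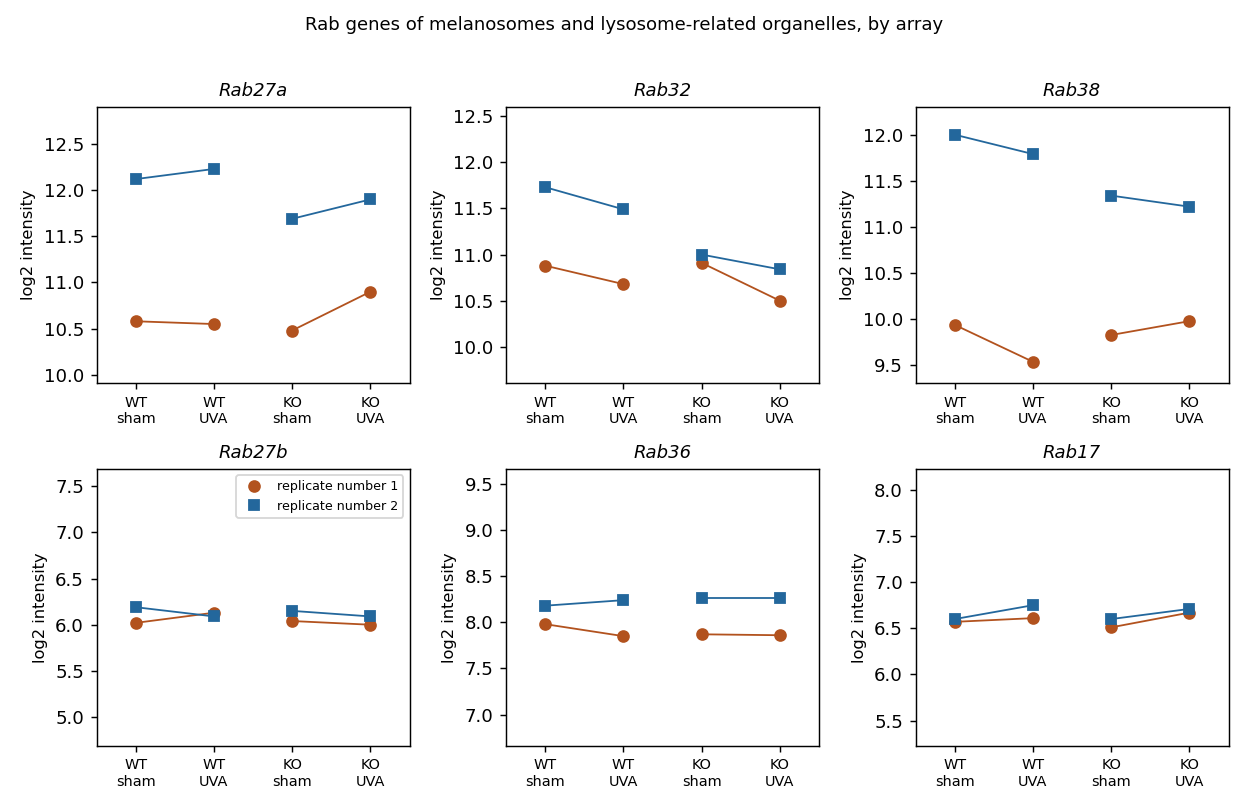
Log2 intensity of 6 Rab genes in each of the 8 arrays by group (x axis), with circles for replicate number 1 and squares for number 2; lines join the sham and UVA arrays of a genotype and number, and every panel spans the same range of log2 units. Rab27a and Rab38 lie higher in number 2 by 1.35 and 1.76, and for Rab32 only the WT arrays of number 2 stand clear.

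Over all members the numbers were apart for 32 of 58 genes. In 19 of them (32.8%) all arrays of number 2 were above all arrays of number 1, against 16.6% of all genes, and in 13 (22.4%) all were below, against 15.5%. The median size of the difference was 0.27 for Rab genes and 0.14 for all genes. These are descriptions, without a test, since no label explains the numbering. Positive differences were found for 36 of 58 Rab genes and for 11388 of 22180 genes in all. The melanosome group leaned one way, with 6 of 6 positive and a median of 0.43. Of these, Rab17 and Rab27b differed by only 0.08 each, with overlap, and averaged 6.63 and 6.09, below the median gene. Regulated secretion Rabs leaned the same way, 6 of 7 positive: Rab3a, which docks secretory vesicles, was higher in number 2 by 0.98, Rab3d by 0.78 and Rab3b by 0.61, each without overlap. Early endosome Rabs leaned the other way, with 5 of 8 below without overlap. Rab5a, the fusion Rab of early endosomes, differed by -0.43, Rab20 by -0.40, Rab22a by -0.36 and Rab31 by -0.31. Rab5b, a paralog of Rab5a, differed by 0.51, again without overlap. Of the 11 late endosome and lysosome Rabs, Rab7b, which acts between late endosomes and the Golgi, read 9.65, 9.75, 9.88 and 9.82 in number 1 and 8.53, 8.46, 9.06 and 8.98 in number 2. That is a difference of -1.02, the lowest among the 58. Rab29, a Golgi and lysosome Rab that recruits the kinase LRRK2, was higher in number 2 by 0.76, and Rab9, which returns receptors from late endosomes, by 0.34. The cilia group, Rab23 (a brake on hedgehog signalling) and Rab28, was lower in number 2, with differences of -0.45 and -0.53. Paralogs of the transport Rabs did not all lie alike: Rab1a, of the route from the endoplasmic reticulum to the Golgi, differed by 0.01 and Rab1b by 0.38. Rab2a differed by -0.25 and Rab2b by 0.32, and Rab11a, of recycling endosomes, by -0.28 and Rab11b by -0.02. Of these, Rab1b, Rab2a, Rab2b and Rab11a were without overlap, as was Rab7 with a difference of 0.07. The melanocyte markers had a median difference of 1.12 (14 of 14 higher in number 2, 13 without overlap) and the fibroblast markers -1.59 (11 of 12 lower, 10 without overlap). Their part in the Rab differences was not tested. In bulk RNA, fewer cells of a type and less RNA per cell cannot be told apart.

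**Figure D2:**
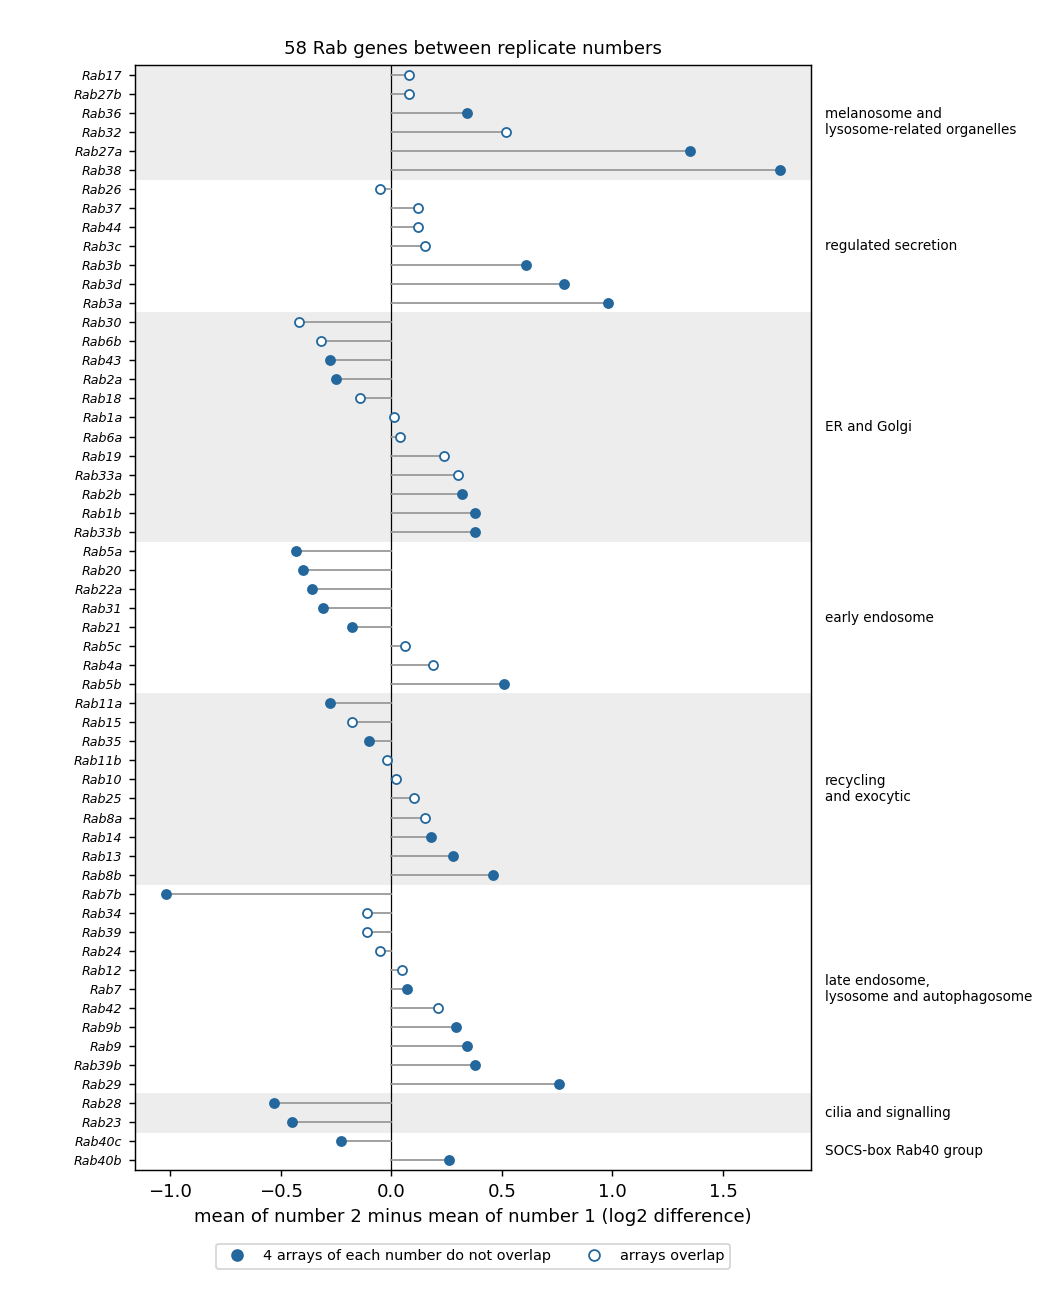
Mean of the 4 arrays of number 2 minus mean of the 4 arrays of number 1 (log2 difference, x axis) for each of 58 Rab genes (y axis), grouped by role; filled circles mark genes whose arrays do not overlap between the numbers. Rab38 (1.76) and Rab27a (1.35) lie at the right end and Rab7b (-1.02) at the left.

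The comparison of KO with WT asks whether Rab transcripts differ in cells without Atg7. None of the 58 genes passed: limma with the replicate number as a block called 0 Rab genes averaged over sham and UVA, against 7 of 22180 genes, or 0.0316%. The smallest adjusted p was 0.477 (Rab7b). At an unadjusted p under 0.05, 3 Rab genes were higher (5.17%, against 4.93% of all genes) and 3 lower (5.17%, against 3.95%). Differences ran from -0.38 to 0.34 with 31 positive and 27 negative, and the median size was 0.07, as for all genes. Without the block limma also called 0, with 0 at an unadjusted p under 0.05. By overlap, 1 gene, Rab11b, had all KO arrays above all WT arrays (1.72%, against 0.866% of all genes) and 0 had all below (0.942%). KO was above WT in 4 of 4 pairs for 5 Rab genes (8.62%, against 7.65%) and below for 6 (10.3%, against 7.78%). These shares lie near the background.

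At the lower end stood Rab32. Its KO minus WT difference was -0.38 (SE 0.13, unadjusted p = 0.0225, adjusted p = 0.532), with 0.04 after sham and -0.19 after UVA in number 1 but -0.73 and -0.66 in number 2. Rab38 differed by -0.23 (SE 0.16, adjusted p = 0.709) and turned sign between the numbers, 0.17 in number 1 and -0.62 in number 2. Rab27a differed by -0.13 (SE 0.11, adjusted p = 0.761), 0.12 in number 1 and -0.38 in number 2. So the 3 pigment cell Rabs read lower in KO within number 2, while within number 1 their means lay between -0.07 and 0.17. In the same KO arrays of number 2, 13 of 14 melanocyte markers were lower than in WT (median -0.34). There 11 of 12 fibroblast markers were higher (median 1.12). The 8 myeloid markers had a median of 0.03, with 5 higher and 3 lower, and among them Lyz2 differed by 1.70. In number 1 the melanocyte and fibroblast medians were 0.01 and -0.01. All 7 Schwann cell markers were higher in KO there (median 0.40), among them Ngfr (1.19), Cdh19 (0.93) and S100b (0.87). In number 2 the Schwann cell median was 0.21, with 4 higher and 3 lower. The part of these markers in the Rab values was not tested. The 4 arrays of number 2 fitted alone, a choice made after the data were seen, called 3 Rab genes: Rab32 (-0.69, limma adjusted p = 0.0238), Rab38 (-0.62, 0.0263) and Rab31 (0.41, 0.0378). That is 5.17% of the members against 3.25% of all genes. This fit has 1 residual degree of freedom and a single replicate number, so it compares these arrays and does not test the genotypes. Number 1 alone called 0.

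The other low members were secretory and Golgi Rabs. Rab3a differed by -0.22 (SE 0.09, unadjusted p = 0.0446): it was at 0.02 and -0.14 in number 1 and at -0.41 and -0.37 in number 2. Rab3b differed by -0.26 (SE 0.12) and was below in all 4 pairs, by -0.07 to -0.38. Rab33b, the Golgi Rab that binds the autophagy factor Atg16l1, differed by -0.25 (SE 0.11), and its paralog Rab33a by -0.23 (SE 0.09, unadjusted p = 0.0399), in the same direction in 4 of 4 pairs. Rab8b, of the exocytic route, differed by -0.21 (SE 0.10). For Rab33b and Rab8b the difference lay in number 2 (-0.47 and -0.42) and was near 0 in number 1 (-0.03 and -0.01). None of these 5 passed over all genes (limma adjusted p = 0.548 to 0.597).

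At the upper end stood Rab7b, with a difference of 0.34 (SE 0.09, 1.27-fold, unadjusted p = 0.00876, limma adjusted p = 0.477). It was higher in KO in 4 of 4 pairs, by 0.23 and 0.08 in number 1 and by 0.53 and 0.51 in number 2. Rab39b differed by 0.21 (SE 0.08), also in 4 of 4 pairs. Rab18, which acts at the endoplasmic reticulum and on lipid droplets, differed by 0.24 (SE 0.10), with 1 of 4 pairs negative. Rab28 (0.20, SE 0.09), Rab23 (0.17, SE 0.09) and Rab4a (0.17, SE 0.09) completed the 6 highest by moderated t. For Rab28 and Rab23 the difference lay in number 2 (0.34 and 0.32, against 0.05 and 0.02), and for Rab4a, the fast recycling Rab, in number 1 (0.33, against 0.01). None of these passed (adjusted p = 0.477 to 0.628). Rab11b, the member without overlap, read 11.93, 11.88, 11.91 and 11.82 in WT and 11.98, 11.94, 11.98 and 11.93 in KO, a difference of 0.07 (SE 0.04). Its highest WT array (11.927) and lowest KO array (11.932) nearly met, and in its dimmer probe sets the genotypes overlapped. By role, the median was -0.08 in the melanosome group (5 of 6 negative and Rab36 at 0.00), -0.01 in secretion and in the Golgi group, 0.06 in early endosomes, 0.04 in recycling, 0.02 in the late endosome group and 0.18 in the pair of cilia Rabs, with 0 called in any. Of the late endosome members close to the autophagosome, Rab7, needed for its fusion with the lysosome, differed by 0.02 in number 1 and 0.06 in number 2, and Rab24 by -0.04 and -0.12.

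**Figure D3:**
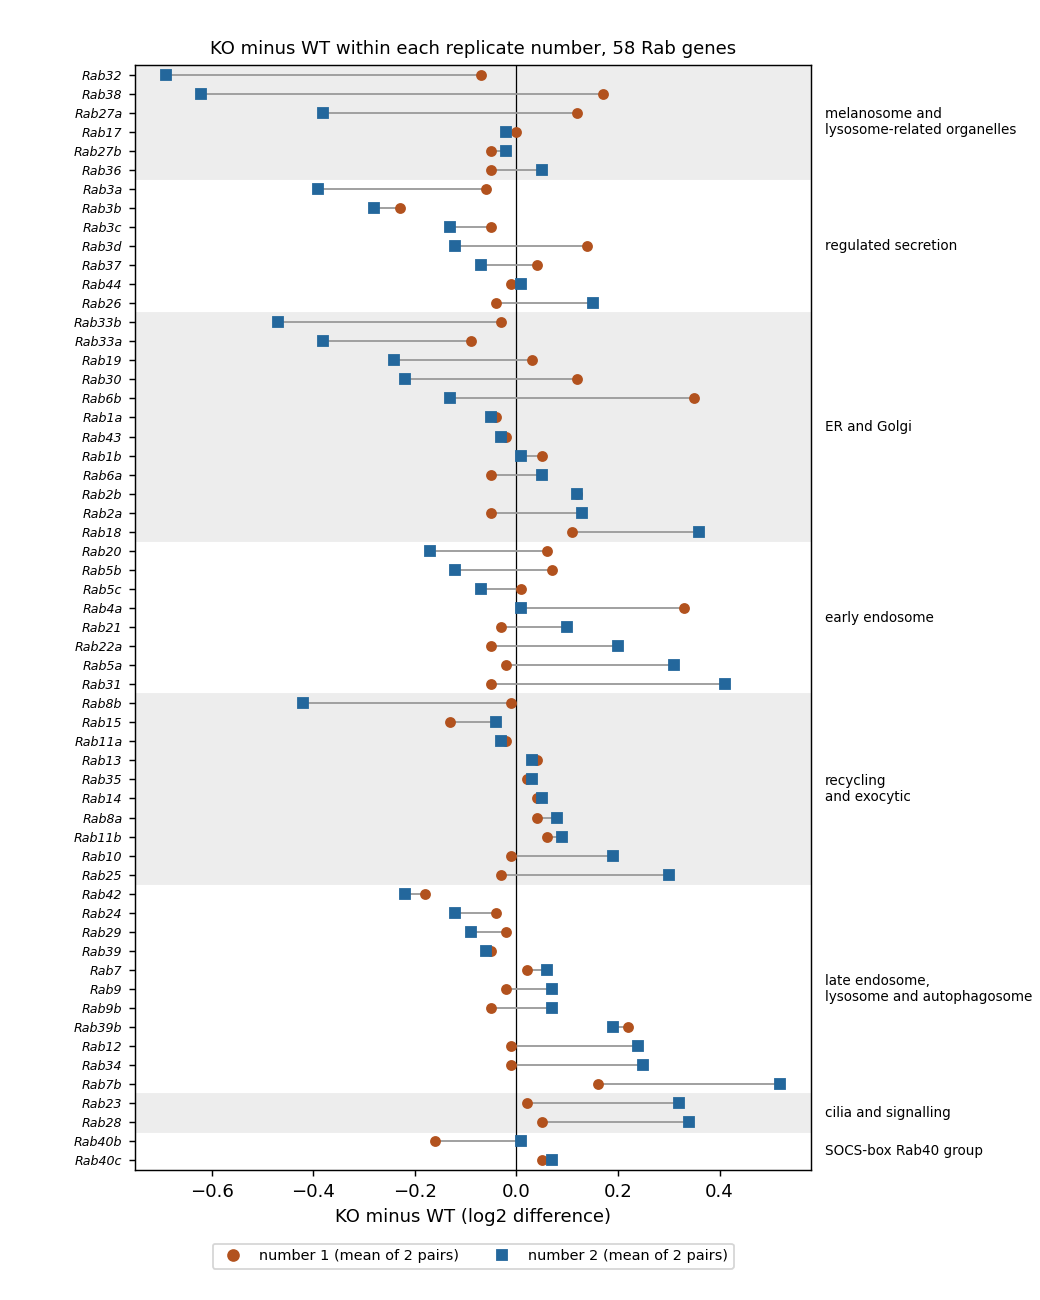
KO minus WT (log2 difference, x axis) for 58 Rab genes (y axis) grouped by role, as the mean of the sham and UVA pairs within replicate number 1 (circles) and number 2 (squares), joined by a line. Rab32 lies at -0.07 and -0.69 and Rab38 at 0.17 and -0.62, while Rab7b lies above 0 in both (0.16 and 0.52).

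Taken separately, the genotype comparison called 0 Rab genes after sham and 0 after UVA with limma, as for all genes (0% in each). At an unadjusted p under 0.05 there were 2 after sham, Rab39b and Rab7b (3.45%, against 5.55% of all genes), and 1 after UVA, Rab33a (1.72%, against 4.18%). Rab27a differed by -0.26 (SE 0.16) after sham and 0.01 (SE 0.16) after UVA. Rab38 differed by -0.38 (SE 0.23) and -0.07 (SE 0.23), and Rab32 by -0.35 (SE 0.19) and -0.42 (SE 0.19). The limma adjusted p of these 6 differences was 0.856 to 1.

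No Rab gene passed the comparison of UVA-1 with sham at 6 h. Limma called 0 of 58 averaged over the genotypes, against 3 of 22180 genes (0.0135%). It called 0 in WT (0.00451% of all genes) and 0 in KO (0.00902%). At an unadjusted p under 0.05, Rab20 and Rab40c were higher (3.45%, against 3.88%) and Rab30 and Rab3a lower (3.45%, against 2.66%). Within WT and within KO there were 0 such Rab genes (3.94% and 4.02% of all genes). UVA arrays were above their sham partner in 4 of 4 pairs for 6 Rab genes (10.3%, against 10.6%) and below for 8 (13.8%, against 9.08%). The differences ran from -0.27 (Rab30) to 0.21 (Rab20), 29 in each direction.

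Rab30, a Golgi Rab, had the lowest value: UVA minus sham was -0.31 and -0.20 in WT and -0.33 and -0.26 in KO (number 1, number 2), a mean of -0.27 (SE 0.09, limma adjusted p = 0.716). Rab3a gave -0.17, -0.20, -0.33 and -0.16 in that order, a mean of -0.22 (SE 0.09). Rab32 gave -0.20, -0.23, -0.42 and -0.16, a mean of -0.25 (SE 0.13). All 4 pairs of these 3 genes were negative. Rab1b, of transport from the endoplasmic reticulum to the Golgi, had a mean of -0.11 (SE 0.05), Rab8a -0.08 (SE 0.05) and Rab3d -0.12 (SE 0.08). On the other side Rab20, an endosome and phagosome Rab, gave 0.24, 0.20, 0.31 and 0.09, a mean of 0.21 (SE 0.08). Rab5a gave 0.14, 0.19, 0.12 and 0.18, a mean of 0.16 (SE 0.08), the narrowest spread of the 6 highest. Rab40c, a Rab that joins a ubiquitin ligase through its SOCS box, gave 0.07, 0.29, 0.16 and 0.09, a mean of 0.15 (SE 0.06). Rab17 (0.12, SE 0.07), Rab25 (0.16, SE 0.09) and Rab27a (0.18, SE 0.11) followed, and Rab25 and Rab27a each had 1 negative pair. The adjusted p of these 12 genes was 0.716 to 0.867 in limma with the replicate number as a block.

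Over all genes the deviations of sham and UVA arrays correlated best within a genotype (0.916 in WT and 0.843 in KO). Over the Rab genes this held in WT (0.95) but not in KO. There KO sham with KO UVA gave 0.846, below WT sham with KO sham (0.873). Each combination of genotype and number was also fitted as a block for the UVA comparison. This limma fit called 97 genes (0.437%), of which 0 were Rabs. At an unadjusted p under 0.05 it held 9 Rab genes (15.5%, against 12.6%): Rab32, Rab30, Rab27a, Rab3a, Rab5a, Rab20, Rab40c, Rab38 and Rab1b. Rab32 came nearest to the threshold with an adjusted p of 0.0871, followed by Rab30 at 0.124 and Rab27a at 0.182. Rab32 and Rab30 were on the lower and Rab27a on the higher side. Melanocyte markers had a median UVA minus sham difference that rounded to 0, and fibroblast markers one of -0.10.

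**Figure D4:**
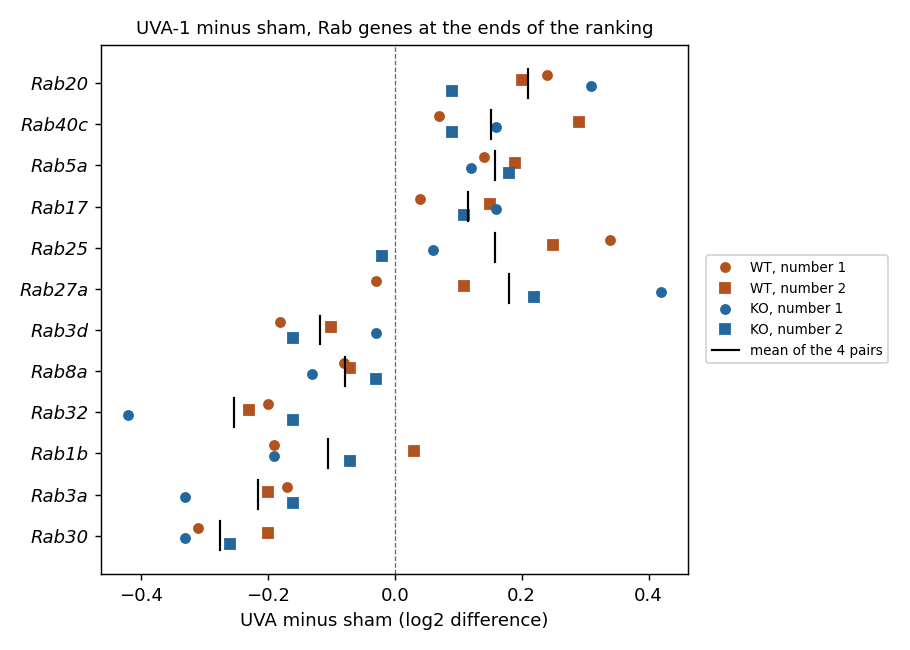
UVA minus sham (log2 difference, x axis) for the 6 Rab genes with the highest and the 6 with the lowest moderated t (y axis), 1 symbol per pair of arrays: colour gives the genotype, shape the replicate number, and the black bar the mean of the 4 pairs. All 4 pairs are negative for Rab30, Rab3a, Rab32, Rab8a and Rab3d and positive for Rab20, Rab40c, Rab5a and Rab17; none passed over all genes.

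The interaction asks whether UVA acted differently without Atg7. Limma called 0 Rab genes, as for all genes (0%), and 0 had an unadjusted p under 0.05 (2.06% of all genes). The highest moderated t belonged to Rab27a, whose UVA minus sham values were -0.03 and 0.11 in WT and 0.42 and 0.22 in KO, an interaction of 0.28 (SE 0.22). Rab38 gave -0.39 and -0.20 in WT and 0.15 and -0.12 in KO, an interaction of 0.31 (SE 0.33). Rab2a (0.13), Rab11a (0.10), Rab9 (0.10) and Rab6b (0.17) made up the positive end. Rab37 (-0.33), Rab25 (-0.27), Rab40b (-0.23), Rab33a (-0.19), Rab39 (-0.15) and Rab39b (-0.14) made up the negative end. These 6 averaged 4.72 to 7.15, below the median gene (7.31), while 46 of 58 Rab genes were above it. Rab37 and Rab39 averaged under 6. All 12 had a limma adjusted p of 1. With each genotype and number as a block the unadjusted p was 0.0219 for Rab27a and 0.0284 for Rab38, and the adjusted p of both was 1.

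The direct partners of the pigment cell Rabs were chosen by their known role after the Rab values had been seen. For Rab27a these were its effectors Mlph, Myo5a and Sytl2 (melanophilin, myosin Va and a tether to the plasma membrane), its exchange factor Madd and its activating protein Tbc1d10a. Mlph read 11.73, 11.61, 11.68 and 11.77 in number 1 and 12.56, 12.49, 12.31 and 12.30 in number 2. Sytl2 read 9.82, 9.46, 9.72 and 9.88, and 11.59, 11.37, 11.17 and 11.05. All 5 were higher in every array of number 2 than in any of number 1, as were 16.6% of all genes. The differences between the numbers were 0.71 for Mlph, 0.79 for Myo5a, 1.58 for Sytl2, 1.01 for Madd and 0.48 for Tbc1d10a. KO minus WT within number 2 was -0.22, -0.17, -0.37, -0.48 and -0.29 in that order, and within number 1 it was 0.06, 0.13, 0.16, 0.22 and -0.00. Other Rab27 effectors of the list were mixed. Sytl4 was also higher without overlap, by 0.38, with KO minus WT of 0.10 in number 1 and -0.17 in number 2. Sytl5 was lower in every array of number 2, with a difference of -0.86. Sytl1 (0.05), Sytl3 (0.02) and Myrip (-0.02) overlapped. Of all 54 listed effectors, 20 were above and 8 below without overlap. For Rab32 and Rab38 the partners were Hps1 and Hps4, which form their exchange factor BLOC-3, and the effector Ankrd27. Hps4 read 9.20, 9.29, 9.12 and 9.23 in number 1 and 9.68, 9.72, 9.13 and 9.27 in number 2. As for Rab32, both WT arrays of number 2 were highest. This also held for other members such as Rab33b and Rab8b, and the share of all genes with this order was not counted. The KO minus WT difference of Hps4 was -0.28 (SE 0.10, unadjusted p = 0.0272, limma adjusted p = 0.542), against -0.38 for Rab32. Hps1 turned sign, -0.18 in number 1 and 0.18 in number 2. Ankrd27 was lower in number 2, with a difference of -0.63, and gave -0.14 after UVA (SE 0.06, unadjusted p = 0.0481, adjusted p = 0.760). Mitf read 10.92, 10.34, 10.58 and 10.28 in number 1 and 11.89, 11.93, 11.61 and 11.53 in number 2. Its KO minus WT difference was -0.27 (SE 0.10, limma adjusted p = 0.548).

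The wider machinery was counted over 6 lists with 169 measured genes of 179 listed, and limma called 0 of them in KO against WT and 0 after UVA with the replicate number as a block. Of 48 GEFs, 18 were higher and 30 lower in KO, with a median of -0.02, and 5 had an unadjusted p under 0.05. Over all 6 lists 12 of 169 genes did (7.1%, against 8.88% of all genes). Dennd4a (0.30), Dennd1a (0.35), the exchange factor of Rab35, and Dennd6b (-0.27) led, and Dennd6b was lower in all 4 pairs, from -0.30 to -0.24. Of 39 GAPs, 16 were higher and 23 lower (median -0.01), led by Tbc1d2 (0.38), Tbc1d31 (-0.30) and Tbc1d32 (-0.17). Of 54 effectors, 16 were higher and 38 lower (median -0.02). The mitotic kinesin Kif20a, which also binds Rab6, differed by -0.37, Spire1, an actin nucleator that works with myosin V on melanosomes, by 0.16 and Micall1 by 0.14. Of 11 BLOC-1 and BLOC-2 subunits, which sort cargo for melanosomes, 4 were higher and 7 lower (median -0.06). Hps5 differed by -0.37 (-0.20 in number 1 and -0.53 in number 2), Bloc1s2 by -0.25 and Hps3 by -0.24. Among 9 genes of prenylation and GDP dissociation, Rabggtb, the catalytic subunit of the transferase, differed by -0.64 with an SE of 0.27, and its 4 pairs ran from -1.35 to 0.25. Of 8 Rab-like GTPases, 5 were higher and 3 lower. In the 6 lists together 63 of 169 genes were higher in KO (37.3%, against 45.8% of all genes). Over all genes the median difference was -0.01. The smallest adjusted p named here was 0.390, of Dennd4a.

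After UVA, 28 of 48 GEFs, 26 of 39 GAPs, 35 of 54 effectors and 7 of 9 prenylation genes were positive, with medians of 0.02 to 0.03, against 0.00 for all genes. BLOC-1 and BLOC-2 subunits had 4 positive and 7 negative, and Rab-like GTPases 4 of each, both with a median of -0.01. Over the 6 lists 104 of 169 were positive (61.5%, against 51.0% of all genes), and 22 had an unadjusted p under 0.05 (13.0%, against 6.54%). Chml, an escort protein that presents new Rabs to the transferase, gave 0.41 and 0.22 in WT and 0.35 and 0.33 in KO, a mean of 0.33 (SE 0.07, unadjusted p = 0.00319, limma adjusted p = 0.614). Plekhm1, a Rab7 effector that brings autophagosomes to lysosomes, gave 0.26, 0.22, 0.26 and 0.32, a mean of 0.26 (SE 0.06, adjusted p = 0.618). Spire1 gave 0.20, 0.23, 0.26 and 0.24, a mean of 0.23 (SE 0.06, adjusted p = 0.671). All pairs of these 3 genes were positive. Tbc1d15 and Tbc1d9 each had a mean of 0.25, C9orf72 0.23, Dennd2c 0.24, Hps6 0.21 and Yipf5 0.15, while Sh3bp5 (-0.31), Tbc1d32 (-0.31) and Ehbp1 (-0.19) were on the lower side; none passed. With each genotype and number as a block, Plekhm1 passed over all genes (limma adjusted p = 0.04998), the only one of the 169 partners to do so (0.592%, against 0.437% of all genes), and Chml (0.0662) and Spire1 (0.0789) did not.

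For 7 Rab genes more than 1 probe set carried the symbol alone. The second probe set of Rab20, with a mean of 7.41 against 8.30, gave a UVA minus sham difference of 0.04 against 0.21. That of Rab6b turned the KO minus WT difference (-0.10 against 0.11), that of Rab3d gave 0.06 against 0.78 between the numbers, and that of Rab39b gave 0.27 against 0.21 for KO minus WT. The 3 probe sets of Rab11b gave 0.07, 0.04 and 0.18 for KO minus WT. The dimmer sets were not used for the values above.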

How the data were processed

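Gene expression was measured on 1-colour Affymetrix arrays in 8 samples, 2 in each of 4 groups taken from the sample titles. The authors deposited a normalised intensity for every probe set, made by RMA in Affymetrix Expression Console 1.3.1.187 per the submitters' processing notes. The deposited intensity values were linear, whole and between 7 and 22585, and tests were run on their log2. The design had assumed log2 values. RMA makes array distributions alike, so a shift of most transcripts would not be seen. The build behind the array annotation is not given in the sources used here. Of 41345 probe sets, 23521 had a single symbol, 1814 several and 16010 none in the table used. Rab4b shares its probe sets with other symbols and was left out. Rab3b was kept by its single-symbol probe set, and what it shares with another symbol was not used.

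limma 3.58.1 in R 4.3.3 was fitted over all 22180 genes with a mean per group and the replicate number as a block (3 residual degrees of freedom), eBayes with a trend, two-sided tests, Benjamini-Hochberg adjustment over all genes and a threshold of 0.05. The block follows the shared numbers in the titles and the correlation of same-numbered arrays; no label says what a number stands for. Sham and UVA arrays of a genotype and number enter as separate arrays, so genotype p-values are too small if they share a culture. With 2 arrays per group the number of arrays limits precision, and the spread may be partly technical. The code was tested on simulated data. Named genes were Rab27a, Rab32 and Rab38, any Rab called, the 6 highest and 6 lowest by moderated t in each averaged comparison and the interaction, and the 3 smallest p per partner list. The members and lists were chosen with earlier results of these data known. Differences between the numbers and the fits on 1 number alone were added after the data were seen. Alternatives covered the block, the variance trend, dim genes, normalization, an offset of 16, the choice of probe set and leaving out each array.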

Additional observations from a re-analysis of the deposited data

How the results depend on the processing

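The count of 0 Rab genes called held in all 7 comparisons when any 1 array was left out (0 to 0) and with the fit without a replicate block, no variance trend, removal of genes averaging under 6, repeated quantile normalization, a common median, an offset of 16 or the mean of all probe sets. It also held with genotype and number as a block, run for the UVA comparisons and the interaction, and with sham and UVA arrays averaged first, run for KO against WT averaged over treatments. For the partner lists leaving out 1 array also gave 0 to 0. An exception was the fit with genotype and number as a block, where 1 partner passed after UVA. Another was the arrays of number 2 alone, a choice made after the data were seen. There 3 Rab genes and 4 of the 169 partners (Dennd2a, Hps5, Kif20a and Rin1) passed in KO against WT. That fit called 721 of 22180 genes (3.25%) and holds 1 replicate number. The number of genes called overall rose from 3 to 97 for UVA with genotype and number as a block, and fell from 7 to 0 for averaged KO against WT without the replicate block, with sham and UVA arrays averaged first, and when any 1 of the 8 arrays was left out. For averaged UVA, leaving out 1 array gave 0 to 2.

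Some directions turned, all of values that had not passed. KO minus WT turned for Rab27a (0.12) and Rab38 (0.17) in number 1 alone. KO minus WT of Rab27a after UVA, 0.01 in the main fit, turned to -0.02 with repeated quantile normalization. The interaction of Rab39b turned to 0.03 with the mean of all probe sets. When 1 array is left out, the numbers become unequal between groups. KO minus WT after UVA then ranged from -0.22 to 0.25 for Rab27a and from -0.42 to 0.28 for Rab38. UVA minus sham ranged from -0.32 to 0.03 for Rab38 on average, from -0.18 to 0.26 (Rab27a), -0.43 to 0.00 (Rab32) and -0.62 to 0.03 (Rab38) in WT, and from -0.58 to 0.00 (Rab32) and -0.34 to 0.36 (Rab38) in KO. The interaction ranged from -0.37 to 0.22 (Rab32), -0.04 to 0.66 (Rab38), -0.30 to 0.00 (Rab39), -0.00 to 0.27 (Rab2a) and -0.03 to 0.37 (Rab6b). The cause was not tested. Averaged KO minus WT ranged from -0.53 to -0.24 (Rab32), -0.24 to -0.01 (Rab27a) and -0.40 to -0.05 (Rab38).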
